A study of Mus musculus with 2 samples.

Results

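The mir-101 family was followed in the microRNA content of the mouse hindbrain at embryonic day 13.5. Its members are the hairpin genes Mir101b and Mir101a, chosen by name: 2 of the 1973 microRNA gene rows in each deposited table, matched by Ensembl identifier in GENCODE. Hindbrain of healthy B6NCrl embryos, males and females pooled, was sequenced for RNA under 30 nucleotides in 2 libraries, the labels' biological replicates 2 and 1. They form 1 untreated group, so no condition was compared. The labels give them different biosamples and the same donor identifier, and whether the litters differed is not stated in the sources used here. Any p-value therefore concerns only the difference between these libraries, which may be technical.

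A microRNA gene is transcribed as a hairpin, which is cut to a short mature strand from its 5p or 3p arm. The mature strand guides a silencing complex to messenger RNAs whose 3′ untranslated region (3′ UTR) pairs with its seed, bases 2 to 8. The family is best known for targeting Ezh2, the catalytic subunit of Polycomb repressive complex 2 (PRC2), which methylates histone H3 and keeps developmental genes silent. That relation was described mainly in human tumour cells. In the embryonic brain, Ezh2 is known for holding neural progenitors in their dividing state. Ezh2 itself was not measured in these libraries of short RNA.

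The mature strands are shown because they decide which counts belong to which gene and which targets the genes share. The sequences are RefSeq entries on GRCm38.p6, with the seed in capitals; all 4 mature strands of both members had an entry.

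miR-101b-3p: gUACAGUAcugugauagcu
miR-101a-3p: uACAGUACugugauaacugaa
miR-101b-5p: uCGGUUAUcaugguaccgaugcu
miR-101a-5p: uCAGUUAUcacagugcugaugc

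The 3p strands were nearly alike. Over the 18 bases they have in common they differed at 1 base, A16G, counted from 1 at the 5′ end of miR-101a-3p, with the base of miR-101a-3p first. The RefSeq entry of miR-101b-3p begins 1 base earlier than that of miR-101a-3p, so the annotated seeds are shifted against each other: UACAGUA in miR-101b-3p and ACAGUAC in miR-101a-3p. The deposited counts are per hairpin. They show neither the arm nor the first base of a read.

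The hairpins are shown with both mature arms in capitals.

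Mir101b: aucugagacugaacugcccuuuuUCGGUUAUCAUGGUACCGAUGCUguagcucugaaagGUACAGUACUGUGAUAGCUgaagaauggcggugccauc
Mir101a: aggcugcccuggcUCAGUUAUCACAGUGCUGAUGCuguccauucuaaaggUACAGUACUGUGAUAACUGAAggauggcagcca

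The Mir101b hairpin has 97 bases and the Mir101a hairpin 83. In a global alignment of 98 columns 68 were identical, or 69.4%. The RNAfold minimum free energy was -39.60 kcal/mol for Mir101b and -47.00 kcal/mol for Mir101a.

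The genes lie on different chromosomes and in hosts of different kinds. Mir101b (ENSMUSG00000065556.1) lies at chr19:29135279-29135375 on the plus strand of GRCm38, in the last intron of the protein-coding gene Rcl1, which acts in ribosomal RNA processing, 775 bases after one exon and 7766 bases before the next. Mir101a (ENSMUSG00000065451.1) lies at chr4:101346945-101347027 on the minus strand, in the last exon of the long non-coding RNA gene E130102H24Rik. Each is on the strand of its host. Of the 1894 rows with a position in GENCODE M21, no other lay within 10 kb of either hairpin; the places of the other 79 rows are not known here.

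**Figure D1:**
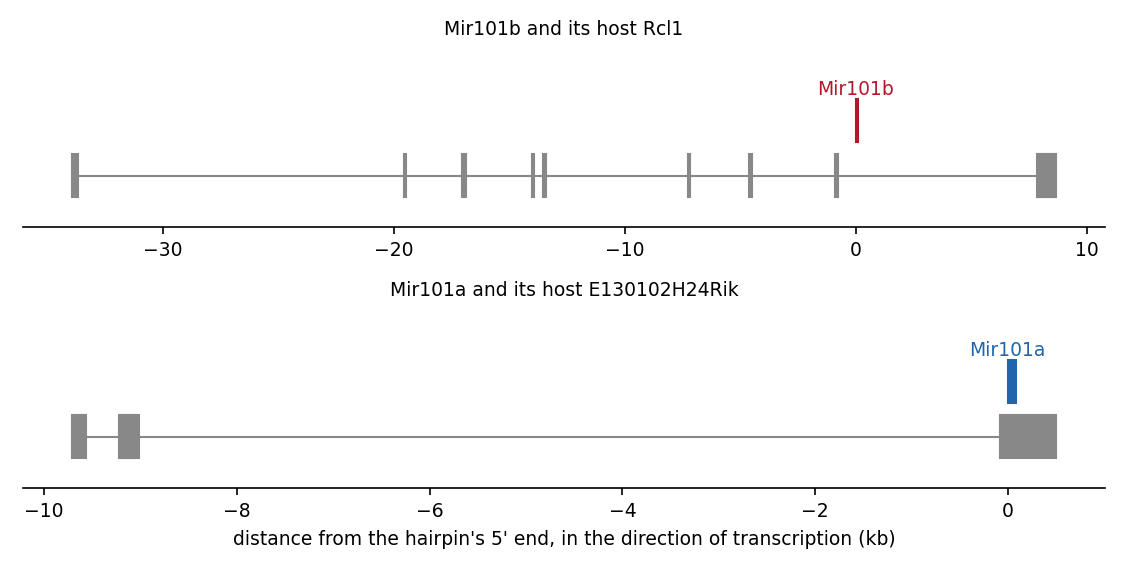
The hairpins of Mir101b and Mir101a (coloured) over the exons (grey boxes) of their hosts Rcl1 and E130102H24Rik, with the distance from the 5′ end of the hairpin in kb along the direction of transcription on the horizontal axis. Mir101b sits between exons of Rcl1, 775 bases after the nearest one, and Mir101a sits inside an exon of E130102H24Rik.

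Reads that mapped to more than 1 place were set aside in the deposited tables and made up 34.5% of the reads of replicate 2 and 33.9% of those of replicate 1. For the members this matters only where a read fits another locus. The hairpins shared 1 stretch of 20 bases, of the 78 in Mir101b and the 64 in Mir101a, and neither shared one with any other microRNA hairpin of GENCODE M21. That stretch starts upstream of the 3p arms and ends before the base at which they differ. Each of the 4 mature strands occurred in full on the hairpin of its own gene and, for Mir101a, on the host exon around it, and in no other GENCODE transcript. Another hairpin, Mir101c on chromosome 9, has an annotated mature strand of 19 bases that is contained in miR-101a-3p. It has no row in the tables and is not analysed here. Reads of miR-101a-3p shortened to those 19 bases would fit both places, so the level of Mir101a is uncertain by the number of such reads, which the tables do not give.

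Among uniquely mapped reads Mir101b was the more abundant member in both libraries. It had 6981 counts in replicate 2 and 4162 in replicate 1. Levels are given as CPM, counts per 1000000 counts on the annotated strand of all microRNA genes. Mir101b stood at 1548 CPM in replicate 2, with an exact Poisson 95% interval of 1512 to 1585, and at 1384 CPM in replicate 1, with an interval of 1343 to 1427. Replicate 2 was the higher library, and the intervals, which cover counting error only, did not overlap. The mean was 1466 ± 116 CPM (SD, n = 2).

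Mir101a had 2413 counts in replicate 2 and 1520 in replicate 1. Its level was 535 CPM in replicate 2, with an interval of 514 to 557, and 506 CPM in replicate 1, with an interval of 480 to 532. Replicate 2 was again higher in value, with overlapping intervals. The mean was 520 ± 21 CPM (SD, n = 2). Together the members made 2084 CPM, or 0.208% of the counts, in replicate 2 and 1890 CPM, or 0.189%, in replicate 1.

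Mir101b therefore held most of the family's uniquely mapped counts. Its share was 74.3% in replicate 2, with an exact Clopper-Pearson 95% interval of 73.4% to 75.2%, and 73.2% in replicate 1, with an interval of 72.1% to 74.4%. The shares of the libraries lay close together, with overlapping intervals, at a mean of 73.8% ± 0.753 (SD, n = 2). Any reads of miR-101a-3p that also fit Mir101c are missing from the counts of Mir101a. Their number is not known, and the intervals do not cover them. As a ratio, Mir101b had 2.89 counts per count of Mir101a in replicate 2 and 2.74 in replicate 1. A read of a mature microRNA covers the whole strand, so counts were not divided by length. Per base of hairpin the level ratio of Mir101b to Mir101a was 2.41 ± 0.0937 (SD, n = 2), still in favour of Mir101b in both libraries. The gap between the members in CPM was larger than the spread of either between the libraries: the lowest value of Mir101b, 1384 CPM, lay above the highest of Mir101a, 535 CPM.

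**Figure D2:**
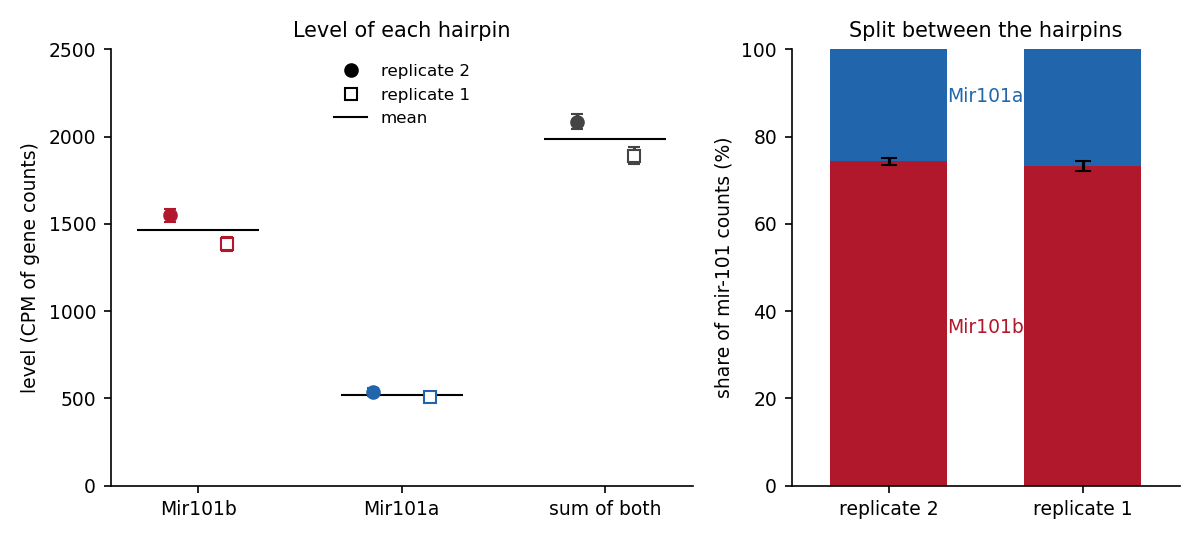
Left, level in CPM of Mir101b, Mir101a and their sum in replicate 2 (filled circles) and replicate 1 (open squares), with exact Poisson 95% intervals and the mean of both libraries as a line. Right, share of the family's counts from Mir101b (red) and Mir101a (blue) in each library with the Clopper-Pearson 95% interval, at 74.3% and 73.2% for Mir101b in replicates 2 and 1. Counts are of uniquely mapped reads.

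No count of either member fell on the opposite strand in either library. With no count seen, up to 3 counts remain possible, equal to 0.665 CPM for replicate 2 and 0.998 CPM for replicate 1. Across all gene rows the strand column with more counts, which was for that reason taken as the annotated strand, held 98.1% of the counts in each library.

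Both members were detected, that is, had at least 10 counts in both libraries, as did 356 genes in all, 18.0% of the rows. By mean level Mir101b ranked 82 and Mir101a 116 of the 356, both above the median detected gene at 166 CPM. The genes nearest to a member were found by the Euclidean distance between log2 CPM values over the 2 libraries. Nearest to Mir101b were Mir96, of the sensory cell cluster, at 1547 ± 53.2 CPM, Mir134 of the imprinted chromosome 12 cluster at 1344 ± 12.4 CPM and Mir125b-1 at 1599 ± 92.9 CPM (SD, n = 2 for each). Their distances were 0.13, 0.20 and 0.27 on the log2 scale, and none of the 3 means differed from that of Mir101b by more than the sum of their SDs. Nearest to Mir101a were Mir27b at 518 ± 32.0 CPM, Mir20b at 518 ± 49.5 CPM and Mir203 at 513 ± 9.36 CPM, at distances of 0.03, 0.08 and 0.09. These also lay within that spread. With 2 libraries of 1 tissue, nearness is a description of level.

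Between the libraries the members moved little. The log2 ratio of replicate 2 over replicate 1, with trimmed-mean (TMM) library sizes, was 0.15 for Mir101b, with a 95% counting interval of 0.09 to 0.20. For Mir101a it was 0.07, with an interval of -0.02 to 0.16. The median detected gene had a log2 ratio of 0.01 and an absolute log2 ratio of 0.17, and 44.7% of detected genes had a smaller absolute ratio than Mir101b and 21.6% a smaller one than Mir101a. Both members lay within 1.5-fold, which 9.83% of the detected genes exceeded.

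A two-sided exact binomial test, adjusted by Benjamini-Hochberg over all detected genes, was run on the counts of each gene in the libraries, and by it Mir101b was higher in replicate 2 (adjusted p = 6.22e-07) and Mir101a did not pass the threshold of 0.05 (adjusted p = 0.237). This test takes counting error as the only error and passed 45.2% of the detected genes (22.5% of the detected genes were called higher in replicate 2), so 1 of 2 members is near that background. With edgeR's exact test, which adds the common spread estimated from these libraries, a biological coefficient of variation of 0.141, the adjusted p was 1 for each member, and 1.4% of the detected genes were called. That spread was estimated from the same difference between the libraries that is tested, so the lack of a call decides nothing about a gene. Either test sets 1 library against 1 library.

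**Figure D3:**
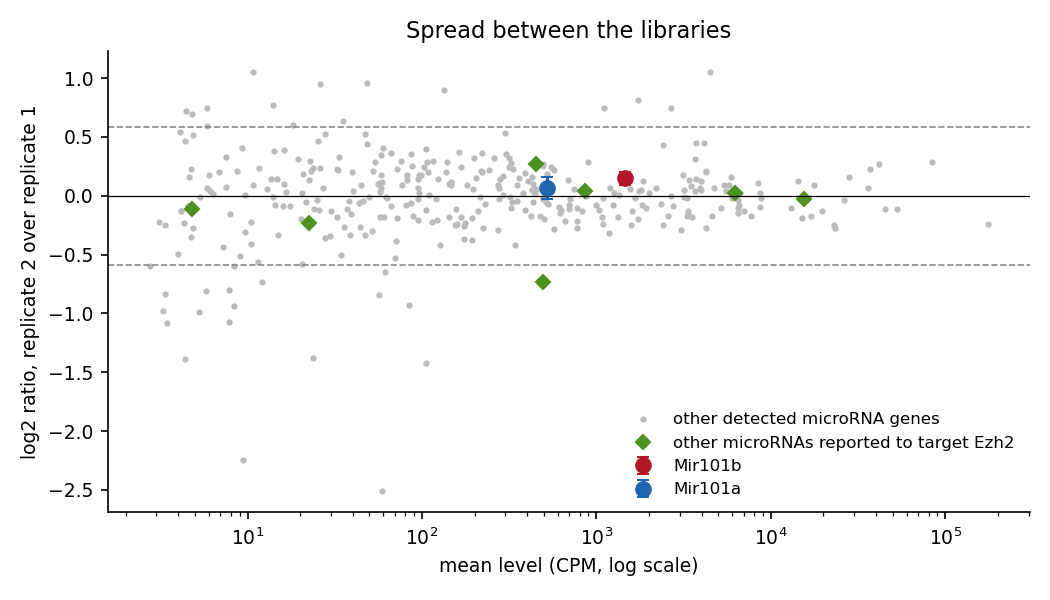
Log2 ratio of replicate 2 over replicate 1 against mean level in CPM (log axis) for the 356 detected microRNA genes, with Mir101b and Mir101a shown with 95% counting intervals and dashed lines at 1.5-fold. The members, at 0.15 and 0.07, lie inside the dashed lines, and of the other microRNAs reported to target Ezh2 (diamonds) Mir214 lies outside them.

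Other microRNAs reported to target Ezh2, in mouse or in human cells, gave the family's place among such genes. The list held 10 hairpins: Mir26b and the Mir26a copies, Mir137, the Mir138 copies, Mir214 and the Mir124a copies. Of these 7 were detected, and 2 had a higher mean level than Mir101b among uniquely mapped reads. Mir26b, the most abundant, stood at 15311 CPM in replicate 2 against 15436 CPM in replicate 1, and Mir137, a regulator of neuronal differentiation, at 6281 CPM against 6132 CPM. Both libraries therefore placed these genes above Mir101b.

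Among uniquely mapped reads Mir138-1, known from neurons, followed below Mir101b at 879 CPM in replicate 2 and 846 CPM in replicate 1. Mir214, known from mesenchyme and muscle progenitors, stood at 371 CPM in replicate 2 against 612 CPM in replicate 1, on either side of the values of Mir101a. Mir138-2 reached 497 CPM in replicate 2 against 408 CPM in replicate 1. The Mir101a mean of 520 CPM differed from the Mir214 mean of 491 ± 170 CPM by less than its SD, so their order is not settled.

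Mir26a-2 and Mir26a-1 had 22.6 ± 2.42 and 4.82 ± 0.234 CPM (SD, n = 2), and the Mir124a copies, a neuronal family, had at most 23 counts in a library. The Mir26a copies shared 6 stretches of 20 bases with each other, the Mir138 copies 5, and the Mir124a copies between 24 and 30 each with one another, so their values are uncertain and can be lower than their reads. Mir26b, Mir137 and Mir214 shared none. The comparison of Mir101b and Mir101a with these genes holds among uniquely mapped reads only.

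Between the libraries, 1 of the 7 detected genes of this list was higher in replicate 2 past the exact binomial test and 2 were lower, against 22.5% and 22.8% of all detected genes. The median log2 ratio was -0.02 in the list, beside 0.01 over all detected genes. Mir138-2 had a log2 ratio of 0.27 (adjusted p = 3.92e-07), Mir26b of -0.02 (adjusted p = 0.0116) and Mir214 of -0.74 (adjusted p = 4.41e-50). With totals in place of TMM library sizes the call of Mir26b was lost (adjusted p = 0.282) and Mir137 was called higher in replicate 2 (log2 ratio 0.03, adjusted p = 0.0265). Of the 3 calls, none was made by edgeR's exact test with the estimated dispersion, whose adjusted p was 0.308 for Mir214 and 1 for the others. Because that dispersion comes from the same 2 libraries, this does not check the binomial calls. Mir199b, the other mesenchyme marker on the list used here, stood at 152 CPM in replicate 2 against 194 CPM in replicate 1. Mir199a-2, a relative of Mir199b that was not on that list, was nearly level at 13.3 CPM in replicate 2 against 12.6 CPM in replicate 1. The log2 ratio was -0.37 for Mir199b and 0.06 for the less abundant Mir199a-2. The part of mesenchymal cells in the value of Mir214 was not tested.

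**Figure D4:**
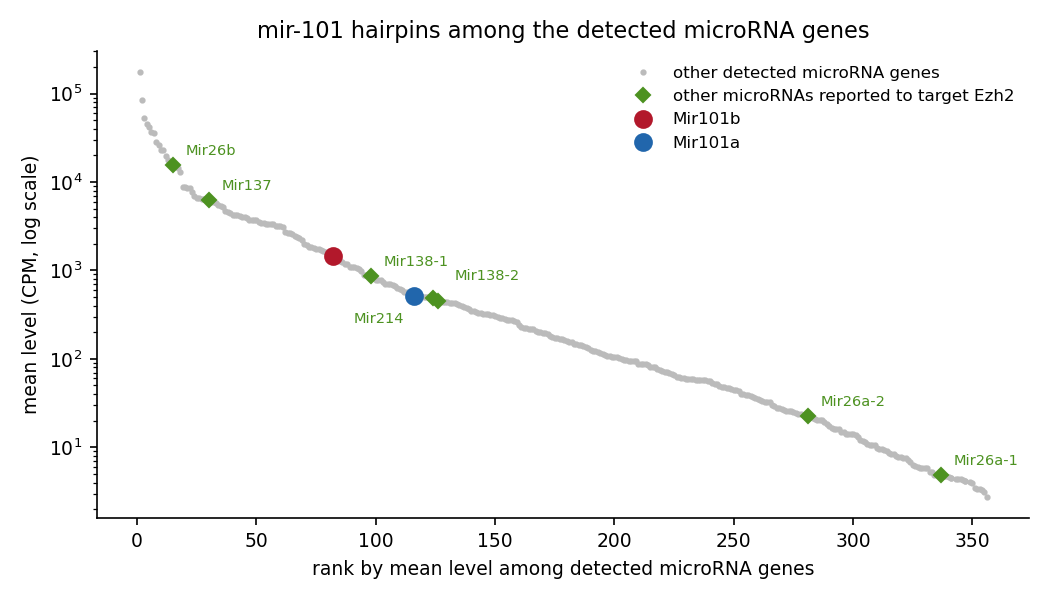
Mean level in CPM (log axis) against rank for the 356 detected microRNA genes, with Mir101b (red), Mir101a (blue) and the 7 detected microRNAs of the Ezh2 list (green). Mir101b at rank 82 lies below Mir26b and Mir137, and Mir101a at rank 116 lies beside Mir214 and Mir138-2. Levels are of uniquely mapped reads, and those of the Mir26a and Mir138 copies are uncertain because the copies share stretches of sequence.

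The seed matches of the members in Ezh2 were read from the GENCODE M21 transcripts, on the messenger strand only. A match to the seed of miR-101a-3p is GUACUGU and a match to that of miR-101b-3p is UACUGUA. They overlap by 6 bases, and GUACUGUA holds both. The Ezh2 3′ UTR, on chromosome 6 and 402 bases long, held GUACUGU at 2 places, starting at bases 59 and 114 after the stop codon, and at base 114 the match covered both seeds. The sites are shown with the matching bases in capitals, since they are the family's seed matches in the Ezh2 3′ UTR. Both are on the minus strand of GRCm38.

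Ezh2 base 59, chr6:47530474-47530496: uucaggaaccuugaGUACUGUgg
Ezh2 base 114, chr6:47530418-47530441: ucugaauuugcaaaGUACUGUAac

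Of 15295 genes with a 3′ UTR at least as long, 2.71% held GUACUGU within its first 402 bases and 0.0523% held it there at least 2 times, while 0.745% held GUACUGUA. A match is a description of the sequence, and no measurement of pairing was made.

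The same search was run on other PRC2 genes. Of 11 genes of the complex and its accessory subunits, 4 held a match to either seed. The share of windows or of all genes with a match to either seed was not computed, and shares are given per motif. Eed, a core subunit, held 1 match to the miR-101a-3p seed in 410 bases, against 2.74% of windows of that length. Rbbp7, a histone-binding subunit, held 1 GUACUGUA in 676 bases (1.36% of windows). Aebp2, an accessory subunit, held 2 GUACUGUA in 4695 bases (9.40% of windows hold at least 1 and 0.845% at least 2). Of windows that long, 28.2% held GUACUGU and 34.1% UACUGUA. The 3′ UTRs of Ezh1, Suz12, Rbbp4, Jarid2, Mtf2, Phf1 and Phf19 held neither match, in 343 to 2992 bases. For these genes the share of same-length windows with GUACUGU ran from 2.37% (Phf1) to 18.6% (Rbbp4). With UACUGUA it ran from 2.75% to 22.9%. Over all 21022 protein-coding genes with a 3′ UTR, 9.39% held GUACUGU, 12.2% UACUGUA and 2.92% GUACUGUA.

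**Figure D5:**
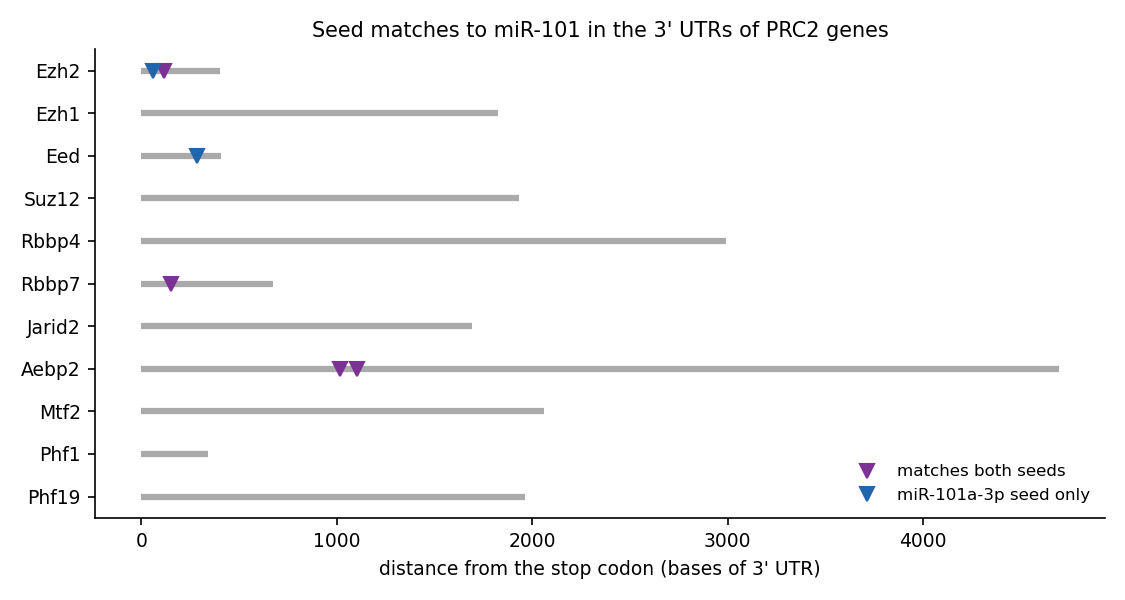
Positions of matches to the miR-101 seeds in the 3′ UTRs (grey bars, to scale in bases from the stop codon) of 11 PRC2 genes. Purple marks match both seeds and blue marks match the miR-101a-3p seed only; Ezh2 has a match of each kind, at bases 114 and 59.

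The libraries held 4508244 counts in replicate 2 and 3006571 in replicate 1, and their counts differed by more than sampling noise (chi-square 38605.6 on 355 degrees of freedom over the detected genes), so they are separate libraries. All 8 hindbrain and neural markers, led by the Hox cluster genes Mir10a and Mir10b, were detected and summed to 141937 CPM in replicate 2 and 118705 CPM in replicate 1. Mir10a and Mir10b carried that sum, while Mir128-1, Mir128-2, Mir153 and Mir218-2 were lower in value in replicate 2. Mir137 (6281 against 6132 CPM) and Mir218-1 (27.7 against 26.3 CPM) were higher in value in replicate 2. Markers of other cells were present in both: endothelial Mir126a at 18917 and 20540 CPM, 3 blood markers at 231 and 314 CPM, 2 mesenchyme markers at 523 and 806 CPM, 2 epithelial markers at 54.3 and 107 CPM and muscle Mir206 at 64.1 and 32.6 CPM, in replicates 2 and 1. Each listed epithelial marker was lower in value in replicate 2, Mir200b at 13.3 against 34.3 CPM and Mir200c at 41.0 against 72.8 CPM. Epithelial microRNAs that were not on the list did not move as one. Mir205 was higher in value, at 59.2 against 48.2 CPM, and Mir203 was nearly level, at 506 against 519 CPM. Mir429 (58.6 against 110 CPM), Mir141 (5.77 against 11.0 CPM) and Mir200a (3.99 against 4.66 CPM) were lower in value. The listed mesenchyme markers Mir214 and Mir199b were lower too, while Mir199a-2, not on the list, stood at 13.3 against 12.6 CPM. The blood markers did not move as one. Mir451a was lower in replicate 2, at 57.5 against 152 CPM. Mir223 was higher in value, at 152 against 141 CPM, and Mir144 was nearly level, at 20.9 against 20.3 CPM. The muscle myosin microRNAs Mir208b and Mir208a, which were not on the list, were lower in replicate 2, at 17.7 against 100.4 CPM and at 3.33 against 15.6 CPM. No listed marker was at 0. In whole tissue a lower level can come from fewer cells of a type or from less RNA per cell, and these cannot be told apart for Mir101b and Mir101a either.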

How the data were processed

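Short RNA from mouse hindbrain at embryonic day 13.5 was sequenced in 2 libraries. The authors deposited raw counts of reads per microRNA gene. Per the deposited README, alignment was to mm10 and the annotation was GENCODE M4. Aligner, counter and trimming: not given in the sources used here. The files do not name their count columns: the first equalled the sum of the others in every gene row, and the larger of the others, with 98.1% of the gene counts, was taken as the annotated strand. Gene rows held 47.5% and 49.0% of 9486700 and 6141045 reads in replicates 2 and 1. The rest was multimapping (34.5% and 33.9%), unmapped (14.6% and 14.0%) or outside any gene (3.39% and 3.15%), and stayed out of CPM and library sizes. No molecular identifiers are named, so intervals cover counting error only.

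Names and coordinates came from GENCODE M21 on GRCm38, which matched 1894 of 1973 rows. With 1 group, edgeR's quasi-likelihood test could not be run. Genes with at least 10 counts in both libraries were tested between the libraries (exact binomial test, two-sided) given edgeR 4.0.16 TMM library sizes, with Benjamini-Hochberg adjustment at 0.05, and the code was tested on simulated data. The common coefficient of variation came from an intercept-only design. Alternatives used DESeq2 1.42.0 size factors, totals, other count minimums, the either-strand counts and edgeR's exact test. Hairpins were folded with RNAfold 2.7.2. For each gene the longest 3′ UTR was searched. Named genes were the members, the Ezh2 list and, per member, the 3 genes nearest in level. Members and lists were chosen with earlier results of these data known, and the PRC2 genes after the files were seen.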

Additional observations from a re-analysis of the deposited data

How the results depend on the processing

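The level of Mir101b was 1466 CPM and that of Mir101a 520 CPM. Per 1000000 of all reads, with unmapped, multimapping and unassigned reads in the total, these became 707 and 251, because the total is larger. Without one replicate, Mir101b ranged from 1384 to 1548 CPM, Mir101a from 506 to 535 CPM and the Mir101b share of the family from 73.2% to 74.3%. Divided by hairpin length, the Mir101b share was 70.7% in place of 73.8%. The either-strand counts and the TMM library sizes moved neither level by more than 1 SD.

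The log2 ratio of replicate 2 over replicate 1 stayed above 0 for both members under totals, DESeq2 size factors, both other count minimums and the either-strand counts, and kept its side of the threshold, from 0.13 to 0.16 for Mir101b and from 0.05 to 0.08 for Mir101a. By the exact binomial test the adjusted p of Mir101b ranged from 4.83e-08 to 4.89e-05 under these alternatives. With edgeR's exact test and the estimated dispersion, its ratio, 0.15, was no longer called (adjusted p = 1). EdgeR's test adds a spread estimated from the difference between the same 2 libraries. It called 5 genes, with 18 at an unadjusted p under 0.05, where the exact binomial test called 161. The other settings called 151 to 170, but of unlike numbers tested. A minimum of 100 counts in both libraries gave 151 of 259, and 1 count over both libraries gave 153 of 717. The either-strand counts gave 170 of 367, totals 169 of 356 and DESeq2 size factors 160 of 356. The same alternatives were applied, after seeing the data, to the detected genes of the Ezh2 list. No ratio can be formed without a replicate. No paired analysis was possible because there is 1 group. Arms, first bases and reads shared with other loci cannot be told from counts per hairpin, and with 2 libraries an SD rests on 1 difference.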
